A study of Homo sapiens with 6 samples.

Results

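Plasminogen activation was examined through 6 genes: PLAU and PLAT, which encode the urokinase-type and tissue-type plasminogen activators, PLAUR, which encodes the urokinase receptor, and the serpin genes SERPINE2, SERPINF1 and SERPINB2. They were taken by gene symbol from a table of 21151 listed genes, and each of the 6 symbols matched 1 entry. The rule goes by name and uses no measured value, but the members were chosen with earlier results of these data known. Shares of all tested genes are therefore given below only as background. All 6 passed the filter on low counts, as did 16353 genes in all.

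Plasminogen is an inactive protease precursor of blood plasma and tissue fluid. The activators cut it to plasmin, which dissolves fibrin, degrades matrix glycoproteins and can activate precursors of matrix metalloproteinases. Urokinase acts mostly while bound to its receptor at the cell surface, and tissue-type activator acts mostly on fibrin. Serpins are inhibitors that trap a protease by offering it a loop that it cuts. SERPINE2 (protease nexin-1) inhibits thrombin, urokinase and plasmin, and SERPINB2 (plasminogen activator inhibitor 2) inhibits urokinase. SERPINF1 (pigment epithelium-derived factor) has the serpin fold but does not inhibit proteases, and is a secreted factor that restrains vessel growth and binds collagen. In skin, the system takes part in wound repair and in the turnover of scar matrix.

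The libraries were RNA sequencing profiles of CCD-1064Sk cells, a human skin fibroblast line, grown in a medium with serum. The shZNF469 group (3 libraries, genotype given as ZNF469 knockdown) carried short-hairpin RNAs against the zinc-finger gene ZNF469, and the shControl group (3 libraries, genotype given as WT) carried a control hairpin. The study set out to learn how ZNF469 affects the making of extracellular matrix. The labels call the 3 libraries of a group technical replicates, so p-values measure only the spread between these libraries, which may be technical. The work rests on 1 cell line, and the number of hairpins and of independently made cultures is not given in the sources used here.

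Sequencing gave between 41318439 and 48298264 counts per shZNF469 library and between 35417366 and 46911355 per shControl library. ZNF469 itself kept 46.2% of its control level in shZNF469 cells (edgeR adjusted p = 0.000873). Of the 16353 genes tested, 745 passed as higher and 874 as lower in shZNF469, with an adjusted p below 0.05 as the limit. The first principal component of log2 CPM placed the shZNF469 libraries between 17.4 and 18.4 and the shControl libraries between -21.5 and -13.2. All 9 fibroblast markers were measured, with a summed level of 33895 to 36255 CPM in shZNF469 and 56361 to 58694 CPM in shControl. COL1A1, COL1A2 and COL3A1 were lower, VIM was higher and 5 did not pass. Of the markers of other skin cells, KRT5, KRT14, KRT1, PECAM1, CDH5, MLANA, TYR, DCT, PTPRC, LYZ and CD3E matched no listed symbol and so were not analysed here. The 4 measured ones were PMEL of melanocytes, KRT10 of keratinocytes, CD68 of macrophages and VWF of endothelium. PMEL was at 25.2 ± 1.07 CPM in shZNF469 and 12.6 ± 0.525 CPM in shControl, called higher (edgeR adjusted p = 0.000525). KRT10 was at 17.4 ± 1.06 and 24.8 ± 2.73 CPM in the same order, called lower (edgeR adjusted p = 0.0190). CD68 (170 ± 25.7 and 135 ± 13.5 CPM) and VWF (at most 2.10 and 1.46 CPM) did not pass. The part of these 4 genes in the results below was not tested. In bulk RNA, fewer cells that express a gene and less RNA per cell cannot be told apart.

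The stretches of DNA just before annotated transcription starts were looked up to show what lies at these genes. RefSeq promoter windows on GRCh38.p14 matched 4 of the 6 genes, and the 250 bases before the start are printed for the window nearest to the start of the first-numbered GENCODE transcript. That distance was 25 bases for PLAU, 5 for SERPINB2, 378 for PLAUR and 679 for SERPINE2. The printed PLAU and SERPINE2 windows lie inside the gene spans given below, downstream of the outermost annotated start. Which start these fibroblasts use was not tested. Capitals mark matches on either strand to 6 short motifs, and no marked matches overlap. TGANTCA is bound by AP-1, the Fos and Jun family. TGACGTCA is the cyclic AMP element. GGGCGG, the GC box, is bound by Sp1 and its relatives. CCAAT is the CCAAT box and binds NF-Y. The TATA box was searched as TATAAA. Last, CACGTG is the E-box of helix-loop-helix factors. The shZNF469 and shControl libraries were not assayed for binding at any of them.
PLAU, plus strand, chr10:73910882-73911131: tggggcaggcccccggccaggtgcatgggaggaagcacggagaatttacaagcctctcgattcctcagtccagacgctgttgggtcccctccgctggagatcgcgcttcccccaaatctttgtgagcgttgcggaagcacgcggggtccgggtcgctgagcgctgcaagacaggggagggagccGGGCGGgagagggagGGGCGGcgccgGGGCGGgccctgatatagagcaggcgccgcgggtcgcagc
PLAUR, minus strand, chr19:43670170-43670419: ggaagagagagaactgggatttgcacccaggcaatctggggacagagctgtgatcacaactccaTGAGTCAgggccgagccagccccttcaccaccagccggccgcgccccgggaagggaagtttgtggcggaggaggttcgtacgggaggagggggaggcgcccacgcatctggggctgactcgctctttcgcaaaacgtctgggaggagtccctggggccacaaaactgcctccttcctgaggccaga
SERPINE2, minus strand, chr2:224038641-224038890: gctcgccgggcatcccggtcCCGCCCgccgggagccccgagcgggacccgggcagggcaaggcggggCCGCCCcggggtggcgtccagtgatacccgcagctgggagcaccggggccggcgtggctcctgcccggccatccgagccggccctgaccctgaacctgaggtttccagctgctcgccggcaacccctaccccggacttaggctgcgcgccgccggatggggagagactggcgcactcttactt
SERPINB2, plus strand, chr18:63887455-63887704: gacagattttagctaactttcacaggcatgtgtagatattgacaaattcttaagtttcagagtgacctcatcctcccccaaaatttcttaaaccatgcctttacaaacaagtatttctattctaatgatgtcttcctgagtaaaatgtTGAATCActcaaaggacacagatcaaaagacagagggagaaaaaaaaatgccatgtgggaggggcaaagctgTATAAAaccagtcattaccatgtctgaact

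The windows fell into 2 kinds. PLAU had 3 GC boxes and SERPINE2 had 2, on the opposite strand, and neither held an AP-1 or TATA match. PLAUR and SERPINB2 each held 1 AP-1 match, which began 186 and 102 bases before the start, and SERPINB2 also held a TATA box 30 bases before it. Over 35116 windows of the same length, 42.6% held a GC box, 32.0% a CCAAT box, 10.7% a TATA box, 6.57% an AP-1 match, 6.34% an E-box and 1.65% a cyclic AMP element. The second SERPINE2 window, upstream of another start at 224031478, held 7 CCAAT matches, 1 GC box and 1 E-box, and the second PLAU window held 1 CCAAT match.

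These fibroblasts expressed SERPINE2 and SERPINF1 far above the activator genes. On the authors' TPM scale, which corrects for transcript length, SERPINE2 stood at 457 ± 30.2 in shZNF469 and 522 ± 24.8 in shControl (SD, n = 3), which ranked it 307th and 274th of all listed genes. SERPINF1 came next among the 6 genes, at 211 ± 12.2 and 182 ± 3.01 TPM in the same order. PLAUR and PLAU had close levels, PLAT was lower at 14.6 ± 0.466 and 19.1 ± 1.45 TPM, and SERPINB2 was at 2.03 ± 0.257 and 2.38 ± 0.257 TPM. The gaps between SERPINE2, SERPINF1, the PLAU and PLAUR pair, PLAT and SERPINB2 were larger than the spread between libraries in both groups.

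**Figure D1:**
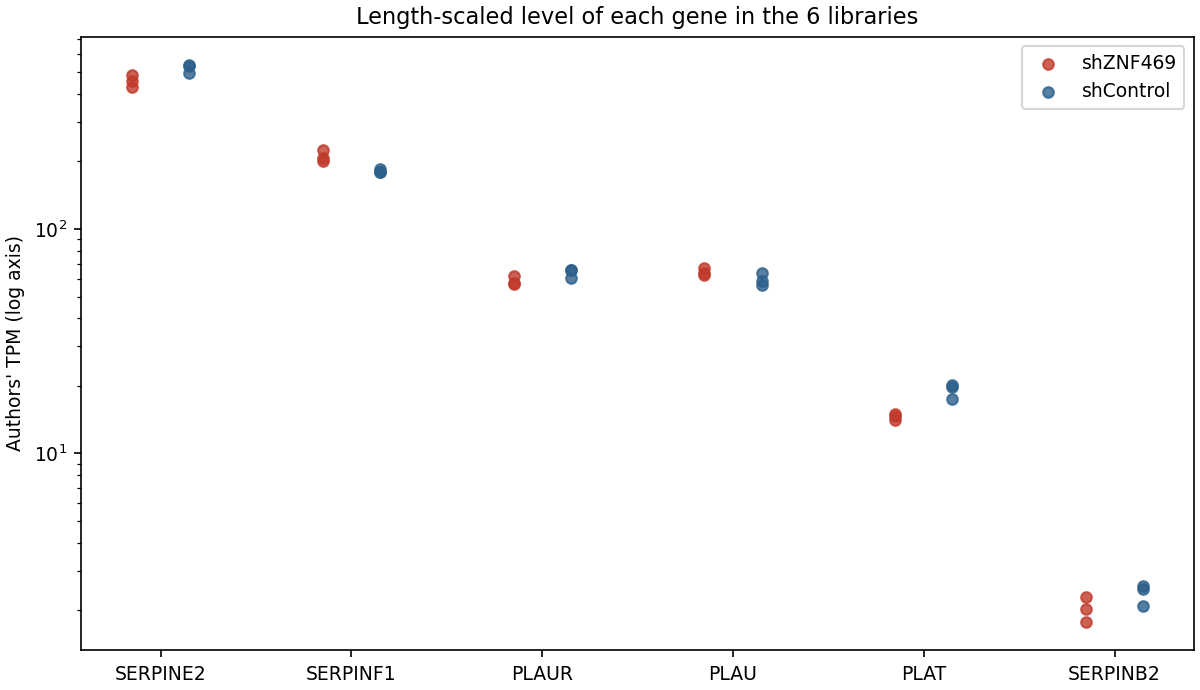
Level of each gene on the authors' TPM scale (log axis), with 1 point per library, shZNF469 in red and shControl in blue. SERPINE2 is the most abundant at 457 and 522 TPM on average, and SERPINB2 the least at 2.03 and 2.38 TPM.

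Of the 6 genes, 2 passed the edgeR test as lower in shZNF469 and 0 as higher, against 5.34% lower, 4.56% higher and 9.90% in either direction among all genes tested. The 2 were PLAT and SERPINE2. At an unadjusted p under 0.05, 1 gene was higher, SERPINF1, and 2 were lower. At least 4001 of the 16353 tested genes were under that limit in either direction. DESeq2 called SERPINF1 higher and limma-voom did not. The median log2 fold change (shZNF469 over shControl) of the 6 genes was -0.12, and that of all tested genes was 0.00395. Counted without a test, 2 of the 6 had every shZNF469 library below every shControl library and 2 had every one above, against 15.7% and 15.6% of tested genes. All estimated differences were small, with no estimate above 1.31-fold in either direction. Larger changes are not excluded for PLAT, SERPINB2 and SERPINF1, whose confidence intervals reach log2 fold changes of -0.60, -0.68 and 0.44.

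**Figure D2:**
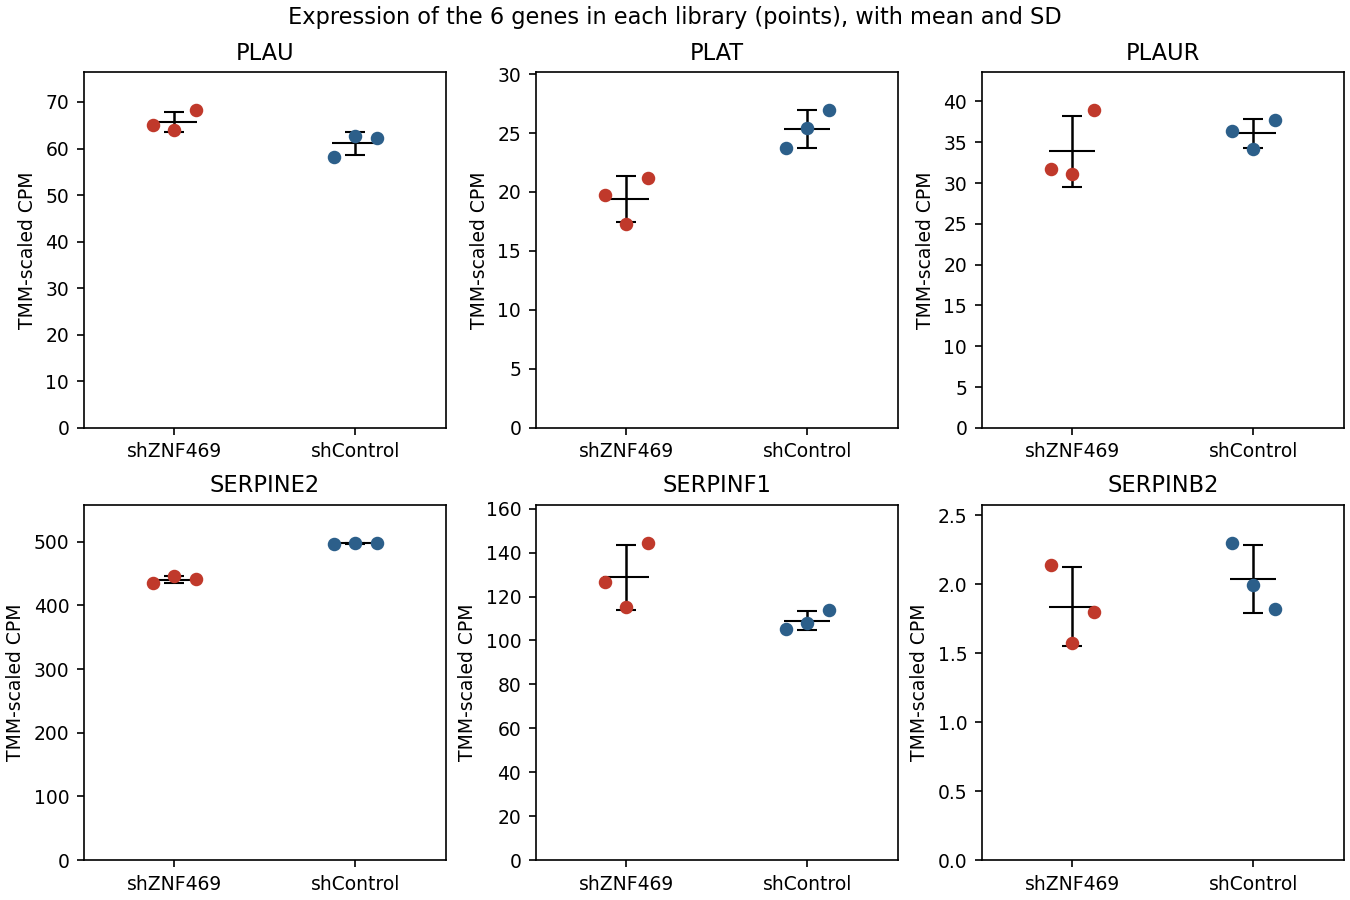
TMM-scaled CPM of each of the 6 genes, with 1 point per library and the mean and SD as bars, shZNF469 on the left and shControl on the right. The shZNF469 libraries lie below all shControl libraries for PLAT and SERPINE2 and above them for PLAU and SERPINF1. For PLAUR and SERPINB2 the groups overlap.

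The tissue-type activator gene fell the most. PLAT (ENSG00000104368, protein coding, chromosome 8, 42174718 to 42207565 on GRCh38.p14, minus strand) had 922, 858 and 861 counts in shZNF469 libraries, against 845, 1197 and 1007 in shControl libraries. Scaled to a common library total with trimmed-mean factors (TMM-scaled CPM), these were 19.8, 17.3 and 21.2 in shZNF469 and 23.7, 25.4 and 26.9 in shControl. Every shZNF469 library thus lay below every shControl library, although the unscaled counts overlapped because the shControl libraries differed in depth. PLAT had a log2 fold change of -0.39 with an SE of 0.09 (edgeR adjusted p = 0.0397), or 1.31-fold lower, with a 95% interval of -0.60 to -0.17. The authors' TPM gave 14.7, 14.1 and 14.9 in shZNF469 and 17.4, 19.8 and 20.1 in shControl, also without overlap. The call was lost without shControl replicate 1, 2 or 3 (adjusted p = 0.0920, 0.123 and 0.131) and without shZNF469 replicate 1 or 2 (adjusted p = 0.117 and 0.0596), while the fold change stayed between -0.45 and -0.30.

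The urokinase gene did not pass the test. PLAU (ENSG00000122861, chromosome 10, 73908832 to 73917494, plus strand) was at 65.0, 63.9 and 68.2 CPM in shZNF469, against 58.3, 62.8 and 62.3 CPM in shControl. The shZNF469 libraries were all above the shControl libraries by this scaling and overlapped with them in TPM (62.6 to 66.7 against 56.1 to 63.7). The log2 fold change of PLAU came to 0.10 with an SE of 0.06 (edgeR adjusted p = 0.318), and its 95% interval ran from -0.03 to 0.23. Exons of PLAU overlap those of C10orf55 on the other strand, and the strand setting of the counting is not given in the sources used here, so reads of the pair cannot be told apart. C10orf55 was listed with 38, 35 and 49 counts in shZNF469 and 23, 0 and 29 in shControl, against 2771 to 3167 and 2076 to 2958 for PLAU.

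The receptor gene did not pass either. PLAUR (ENSG00000011422, chromosome 19, 43646095 to 43670169, minus strand) encodes the protein that holds urokinase at the cell surface and is anchored there by a lipid tail. It was at 31.7, 31.1 and 38.9 CPM in shZNF469, against 36.4, 34.1 and 37.7 CPM in shControl. Of the shZNF469 libraries, 2 lay below all shControl libraries and replicate 3 lay above them all. For PLAUR the log2 fold change came to -0.09 with an SE of 0.10 (edgeR adjusted p = 0.655), with a 95% interval of -0.31 to 0.13. Left out singly, the libraries gave -0.20 (without shZNF469 replicate 3, adjusted p = 0.136) to -0.03 (without shZNF469 replicate 2, adjusted p = 0.926).

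Among the serpins, SERPINE2 fell by little and with little spread. The gene (ENSG00000135919, chromosome 2, 223975045 to 224039286, minus strand) had 435, 445 and 441 CPM in shZNF469 and 496, 497 and 498 CPM in shControl. The shControl libraries were nearly equal, and the shZNF469 libraries all lay below them. SERPINE2 had a log2 fold change of -0.17 with an SE of 0.04 (edgeR adjusted p = 0.0337), or 1.13-fold lower, with a 95% interval of -0.27 to -0.08. The call was lost without shControl replicate 1, 2 or 3 (adjusted p = 0.142, 0.137 and 0.110) and without shZNF469 replicate 1 or 3 (adjusted p = 0.117 and 0.0732), while the log2 fold change stayed at -0.18 to -0.17. On the authors' TPM scale, where libraries of a group differed more (456, 487 and 427 in shZNF469 against 540, 534 and 494 in shControl), limma on log2(TPM + 1) gave an adjusted p = 0.179.

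SERPINF1 (ENSG00000132386, chromosome 17, 1762060 to 1777565, plus strand), whose product does not inhibit the activators, was at 126, 115 and 145 CPM in shZNF469 and 105, 108 and 114 CPM in shControl. The shZNF469 libraries were all above the shControl libraries, and they differed among themselves more than the shControl libraries did. Its log2 fold change came to 0.24 with an SE of 0.09, or 1.18-fold, with an unadjusted p of 0.0262 and an edgeR adjusted p = 0.139, so it did not pass. It passed with DESeq2 (adjusted p = 0.0185) and without shZNF469 replicate 2 (log2 fold change 0.32, adjusted p = 0.0474), and was 0.15 without shZNF469 replicate 3 (adjusted p = 0.233).

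SERPINB2 (ENSG00000197632, chromosome 18, 63887705 to 63903888, plus strand), best known from monocytes and keratinocytes, was scarce, with 100, 78 and 73 counts in shZNF469 and 82, 94 and 68 in shControl. This came to 2.14, 1.57 and 1.80 CPM in shZNF469, against 2.30, 1.99 and 1.82 CPM in shControl, and the groups overlapped. The log2 fold change of SERPINB2 came to -0.15 with an SE of 0.23 (edgeR adjusted p = 0.764), and its 95% interval of -0.68 to 0.38 takes in a fall as large as that of PLAT as well as a rise. Its exons overlap those of SERPINB10 on the same strand in GENCODE release 29. SERPINB10 matched no listed symbol and so was not analysed here.

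The balance between the genes was also read within each library, as a ratio of counts, which does not depend on how libraries are scaled. The ratio of PLAU to PLAT was 3.29, 3.69 and 3.22 in shZNF469 and 2.46, 2.47 and 2.31 in shControl. The groups did not overlap, and the mean was 3.40 ± 0.254 against 2.41 ± 0.0864 (SD, n = 3), 1.41-fold higher. This gave an exact permutation p = 0.1 (two-sided), the smallest that 3 against 3 libraries allow, and 0.2 adjusted over the 4 ratios computed. The ratio of PLAU to SERPINE2 was 0.149, 0.144 and 0.155 in shZNF469 and 0.118, 0.126 and 0.125 in shControl, 1.21-fold higher. It also separated the groups, with an exact permutation p = 0.1 and 0.2 adjusted. In CPM, PLAU was already higher and PLAT and SERPINE2 lower in every shZNF469 library than in any shControl library. The separation of both ratios follows from these values. How many ratios of other gene pairs separate the groups was not computed. PLAU alone did not pass the test across genes. The genes in the denominators, PLAT and SERPINE2, were each called lower in it, calls lost in 7 and 8 of 15 alternative settings. What each gene adds to the shift of a ratio was not tested.

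The other ratios overlapped between the groups. PLAU to PLAUR was 2.05, 2.06 and 1.75 in shZNF469 and 1.60, 1.84 and 1.65 in shControl (exact permutation p = 0.2). In TPM, PLAU exceeded PLAUR in all shZNF469 libraries (ratios of 1.11, 1.17 and 1.01), whereas in shControl libraries the ratio was 0.855, 1.06 and 0.887. PLAT to SERPINE2 was 0.0441 ± 0.00471 in shZNF469 and 0.0510 ± 0.00308 in shControl (exact permutation p = 0.2), with overlap between the groups. Since its smallest possible p is 0.1, this test could not have told any of the ratios apart at 0.05.

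**Figure D3:**
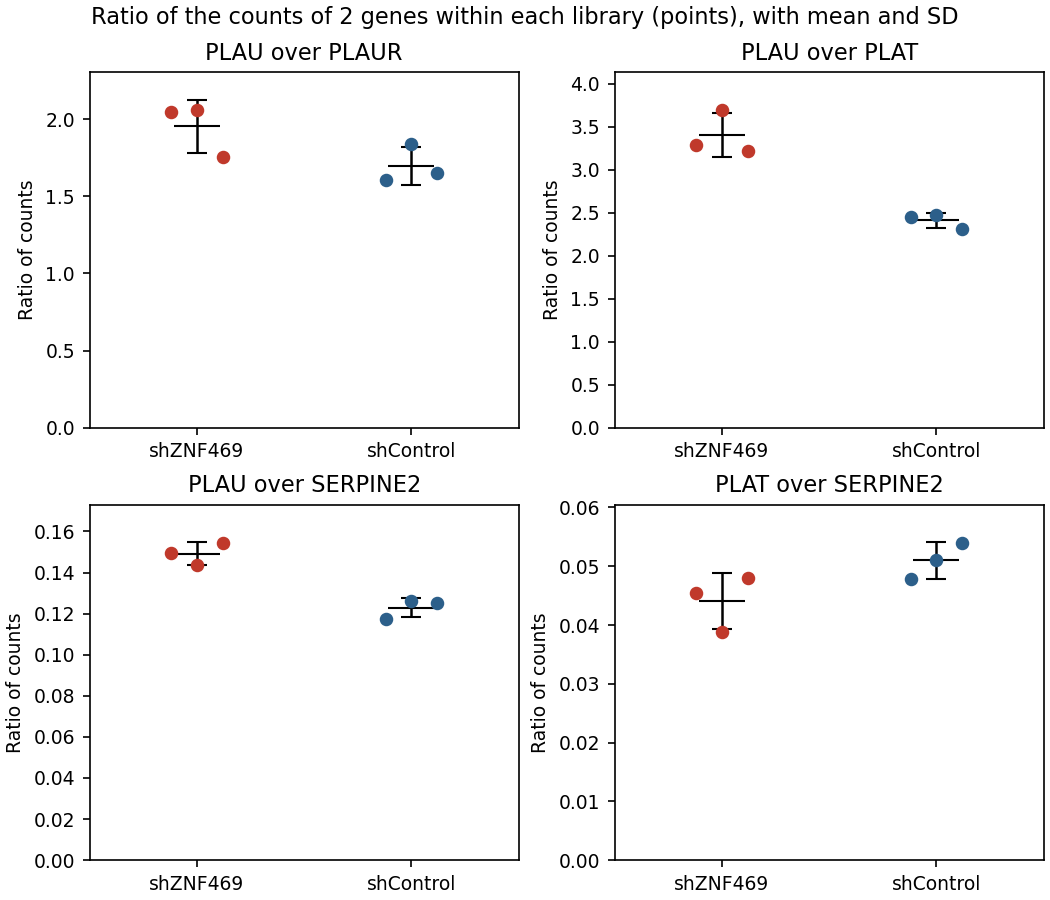
Ratio of the counts of 2 genes within each library, with 1 point per library and the mean and SD as bars, shZNF469 on the left and shControl on the right. The ratios of PLAU to PLAT and to SERPINE2 are higher in every shZNF469 library than in any shControl library, and those of PLAU to PLAUR and of PLAT to SERPINE2 overlap.

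Of 45 further genes of the plasminogen system, listed by role, 29 were tested, and 7 were higher and 2 lower in shZNF469, with a median log2 fold change of 0.08. Both directions can be read against the 4.56% higher and 5.34% lower among all genes tested. Plasminogen itself (PLG) matched no listed symbol and so was not analysed here. Of the 5 tested genes whose products bind plasminogen, ENO1 fell (530 ± 41.1 CPM in shZNF469 and 829 ± 31.7 CPM in shControl, log2 fold change -0.65, adjusted p = 0.00177). ENO1 encodes a glycolytic enzyme that can also sit at the cell surface. ANXA2 and S100A10, whose products form the annexin A2 complex that assembles plasminogen and tissue-type activator, had log2 fold changes of -0.23 and 0.000708 (adjusted p = 0.113 and 0.998).

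A2M, the gene of a broad protease trap, was at 50.9 ± 2.68 CPM in shZNF469 and 48.3 ± 1.02 CPM in shControl (adjusted p = 0.485).

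Of 10 tested genes for clearance, partners and anchors of the receptor, 3 rose. LRP1, the endocytic receptor that takes up complexes of activator and serpin, was at 1837 ± 109 CPM in shZNF469 and 1402 ± 52.3 CPM in shControl (log2 fold change 0.39, SE 0.05, edgeR adjusted p = 0.00552). ITGB3, an integrin chain that pairs with ITGAV to bind vitronectin, was at 97.5 ± 3.45 CPM in shZNF469 and 70.9 ± 2.05 CPM in shControl (log2 fold change 0.46, adjusted p = 0.00330), whereas ITGAV had a log2 fold change of -0.00974 (adjusted p = 0.974). IGF2R, the mannose 6-phosphate receptor, which also binds the urokinase receptor and plasminogen, was at 434 ± 25.2 CPM in shZNF469 and 351 ± 13.2 CPM in shControl (adjusted p = 0.0205). The call of IGF2R was lost without shControl replicate 1, 2 or 3 (adjusted p = 0.0789, 0.0636 and 0.0856) and without shZNF469 replicate 1 (adjusted p = 0.0901), and with limma on log2(TPM + 1) or log2(TPM + 0.1) (adjusted p = 0.157 and 0.174). With limma on log2(TPM + 0.1), that of LRP1 was lost too (adjusted p = 0.0530). VLDLR, another endocytic receptor of these complexes, had a log2 fold change of -0.31 (adjusted p = 0.0719), and MRC2, a collagen receptor that associates with the urokinase receptor, one of 0.06 (adjusted p = 0.674).

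Of the proteases able to cut the urokinase precursor, CTSL, a lysosomal cathepsin gene, rose (log2 fold change 0.55, adjusted p = 0.00240), and CTSB had a log2 fold change of 0.21 (adjusted p = 0.0587). Of 8 tested targets of plasmin, the metalloproteinase genes MMP1, MMP2 and MMP14 rose. MMP1, the interstitial collagenase gene, was at 93.2 ± 3.43 CPM in shZNF469 and 71.9 ± 3.47 CPM in shControl (log2 fold change 0.37, adjusted p = 0.0101, and 0.0547 without shControl replicate 1). MMP14, a membrane-bound metalloproteinase gene, was 1.28-fold higher (adjusted p = 0.00340). MMP2, a gelatinase gene, was 1.16-fold higher (adjusted p = 0.0341), a call lost without shControl replicate 1, 2 or 3 (adjusted p = 0.115, 0.0887 and 0.0795) and without shZNF469 replicate 1 or 3 (adjusted p = 0.123 and 0.0845), and with limma on log2(TPM + 1) or log2(TPM + 0.1) (adjusted p = 0.112 and 0.0962). MMP3, the stromelysin gene, had a log2 fold change of 0.07 (adjusted p = 0.551), and F2R, a receptor cut by thrombin, one of -0.12 (adjusted p = 0.255). F3, which encodes tissue factor and starts the clotting that lays down fibrin, fell (29.2 ± 1.94 CPM in shZNF469 and 45.6 ± 0.999 CPM in shControl, log2 fold change -0.64, adjusted p = 0.00171).

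**Figure D4:**
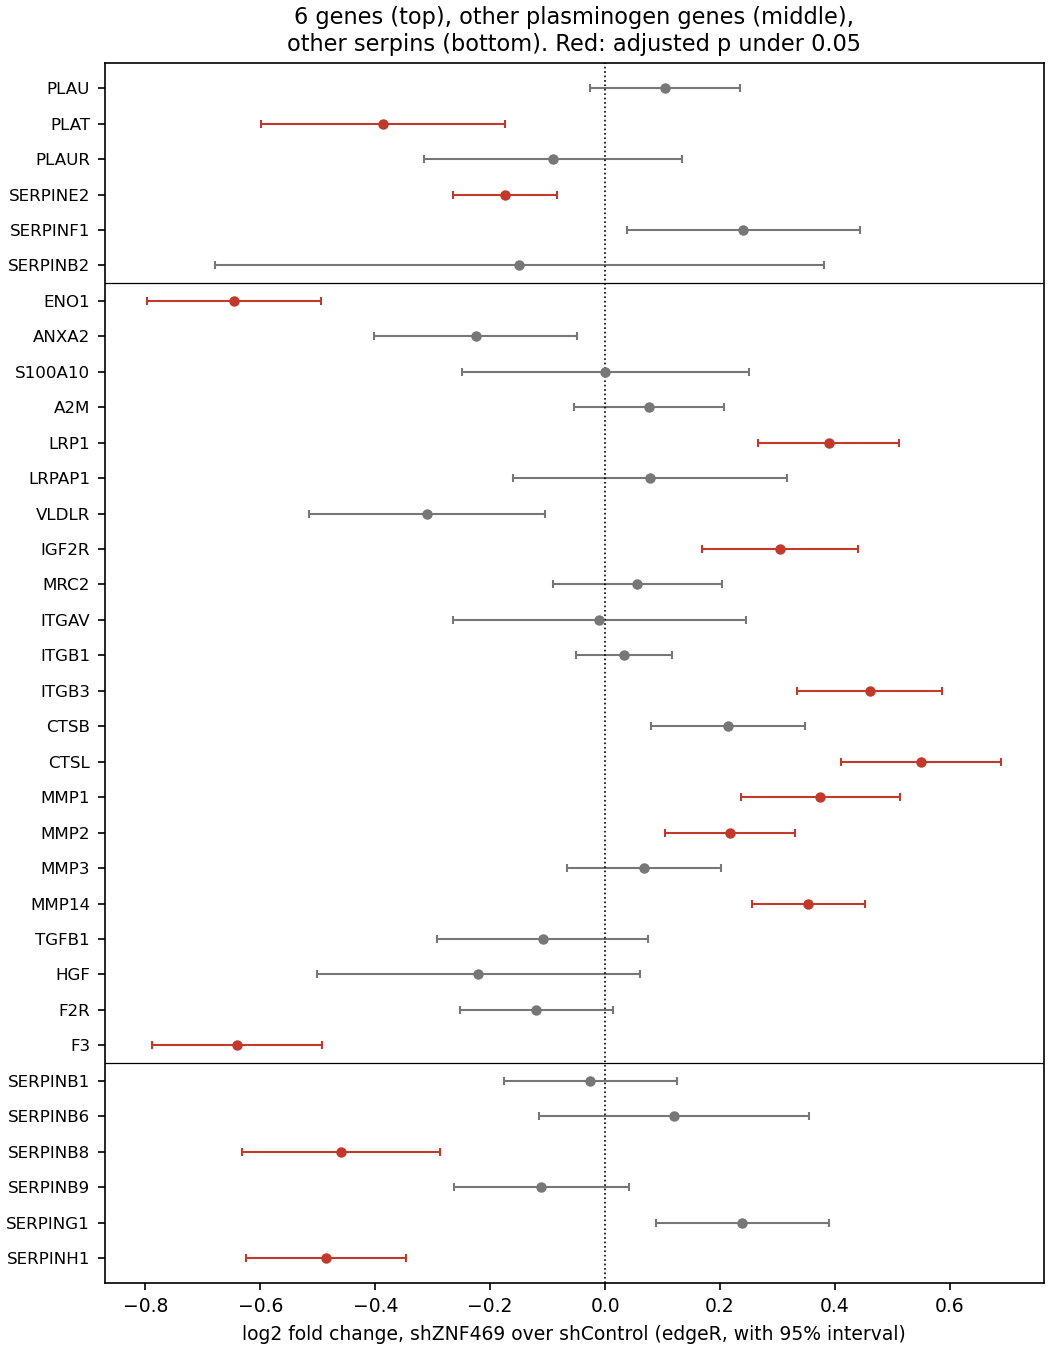
log2 fold change of shZNF469 over shControl with its 95% interval (edgeR) for the 6 genes (top), the other plasminogen genes (middle) and further serpins (bottom) with a mean of 10 CPM or more. Red points passed at an adjusted p under 0.05. PLAT and SERPINE2 lie left of 0, as do ENO1, F3, SERPINB8 and SERPINH1, and the red points right of 0 are LRP1, IGF2R, ITGB3, CTSL, MMP1, MMP2 and MMP14.

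Serpin genes outside the 6 were read in the same way. Of 11 listed, 8 were tested, and 3 were lower and 0 higher (edgeR), with a median log2 fold change of -0.07. Among all genes tested, 5.34% were lower and 4.56% higher. At an unadjusted p under 0.05, 1 of the other serpins was higher, SERPING1, and 3 were lower. At least 4001 of the 16353 tested genes were under that limit in either direction. SERPING1 was called higher by DESeq2 and limma-voom. The falls were those of SERPINH1, SERPINB7 and SERPINB8. SERPINH1, a collagen chaperone with the serpin fold that inhibits no protease, was at 789 ± 60.0 CPM in shZNF469 and 1105 ± 21.3 CPM in shControl (log2 fold change -0.49, adjusted p = 0.00381). SERPINB8, an intracellular inhibitor of furin, was at 17.7 ± 1.15 CPM in shZNF469 and 24.4 ± 1.19 CPM in shControl (log2 fold change -0.46, adjusted p = 0.0107). SERPINB7, a scarce member, was at 1.28, 1.47 and 1.01 CPM in shZNF469 and 3.65, 2.78 and 3.13 CPM in shControl (log2 fold change -1.34, adjusted p = 0.0129). The calls of SERPINB7 and SERPINB8 were lost without shControl replicate 1 (adjusted p = 0.0640 and 0.0619) or shZNF469 replicate 1 (adjusted p = 0.0532 and 0.0553), and that of SERPINB8 also without shControl replicate 3 (adjusted p = 0.0503). SERPING1, the C1 inhibitor gene of the complement and contact systems, had a log2 fold change of 0.24 (adjusted p = 0.0601).

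The direction of every one of the 6 genes was kept in each of 15 alternative settings, but the calls were not. PLAT passed in 8 of the 15 settings, SERPINE2 in 7 and SERPINF1 in 2. SERPINE2 passed in 7, at -0.19 to -0.17, and SERPINF1 in 2, at 0.15 to 0.32. PLAU, PLAUR and SERPINB2 passed in none, by edgeR, DESeq2, limma-voom or limma on TPM.

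**Figure D5:**
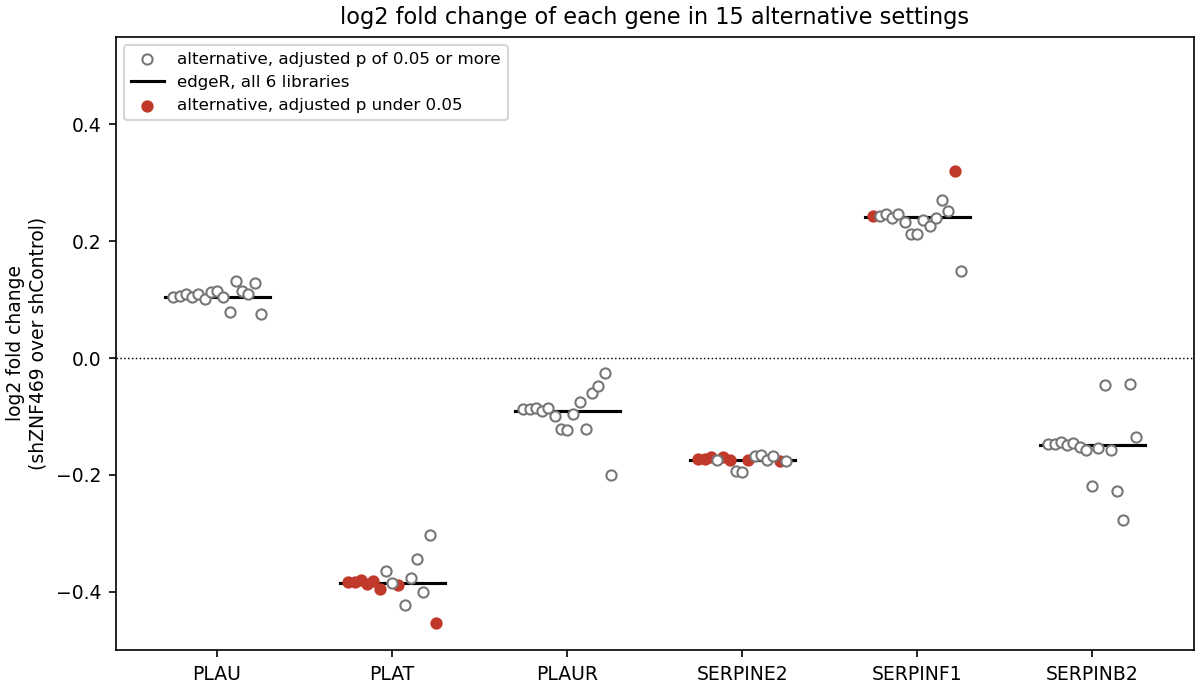
log2 fold change of shZNF469 over shControl of each of the 6 genes in 15 alternative settings (points, filled red where the adjusted p was under 0.05) and in edgeR with all 6 libraries (line). All points of a gene lie on one side of 0, at -0.45 to -0.30 for PLAT and at 0.15 to 0.32 for SERPINF1.

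The genes whose log2 CPM followed each of the 5 better expressed genes most closely were found among 9397 others with a mean of 10 CPM or more. Over 6 libraries, which share the difference between the groups, such a match is a description only. ALDH2 and RARA were nearest to PLAT (Pearson's r of 0.997 for each) and ALDH1A1 and UHRF1 to SERPINE2 (0.998 for each). EIF1 and WARS2 were nearest to PLAU (0.993 for each), TEAD2 and DPCD to PLAUR (0.995 and 0.992), and USF2 and PIGU to SERPINF1 (0.997 and 0.994). The size of the change differed between such neighbours: UHRF1, which follows the pattern of SERPINE2, had a log2 fold change of -1.41, against -0.17 for SERPINE2.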

How the data were processed

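Per the labels' protocols, column-purified total RNA was used for NEBNext Ultra RNA libraries. The submitters' processing notes name HISAT2 and StringTie, and GRCh38.p14 as the build. Annotation, strand setting and filters are not stated there. The deposited table holds whole-number counts per gene and library and the TPM that the authors computed. Of 21151 genes, 4195 have no symbol. Where a symbol occurs more than once (58 do), its most abundant entry served. No TPM above 0 was below 0.333, so a value listed at 0 is not proof of absence.

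Counts were analysed with edgeR 4.0.16 in R 4.3.3: filterByExpr with a minimum count of 10, TMM factors and the quasi-likelihood F-test, which was two-sided and had no covariate. P-values were adjusted by Benjamini-Hochberg over 16353 genes, and an adjusted p below 0.05 was a pass. CPM are TMM-scaled, and errors are SD over n = 3. SE and 95% intervals come from the F statistic. Adjusted p-values are edgeR's unless another tool is named. Alternatives were DESeq2 1.42.0, limma 3.58.1 (voom, and log2 of TPM + 1 or + 0.1), other factors and filters, a replicate term and leaving out each library. Ratios used an exact permutation test over libraries. The test was checked on simulated counts, in which small changes went mostly uncalled. A gene that did not pass is therefore not shown to be unchanged. Library pairs within a group differed beyond sampling noise (chi-square of 8.01 to 36.4 per degree of freedom), so none was merged.

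The members and lists were chosen with earlier results of these data known. Genes were named by rule: the 6 members, listed genes that passed with a few that did not, and for each member the 2 genes of highest r. A gene of the lists, with the ratios that use it, is not reported here and is left out of the list counts.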

Additional observations from a re-analysis of the deposited data

How the results depend on the processing

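Main counts are 2 members lower and 0 higher, 745 genes higher and 874 lower, 7 higher and 2 lower of the wider plasminogen list, and 0 and 3 of the other serpins. Of the members and the listed genes named, S100A10 and ITGAV changed direction, and neither passed in any setting. S100A10 was at -0.00597 with limma-voom, -0.0241 and -0.0242 with limma on log2(TPM + 1) and log2(TPM + 0.1), and -0.00401 with the replicate block. Without single libraries, S100A10 ranged from -0.12 to 0.0706 and ITGAV from -0.14 to 0.0764. DESeq2 also called ANXA2 and VLDLR lower and CTSB higher (adjusted p = 0.0230, 0.00662 and 0.00558). The replicate block called ANXA2 and CTSB too (adjusted p = 0.0159 and 0.0274), and CTSB also passed with a mean of at least 1 CPM and without shZNF469 replicate 2 (adjusted p = 0.0417 and 0.0187). SERPING1 passed in the last 2 settings as well (adjusted p = 0.0437 and 0.0405). The fall of PLAT missed the threshold with limma on log2(TPM + 1) at -0.37 and log2(TPM + 0.1) at -0.38, and ranged from -0.45 to -0.30 without single libraries. The fall of SERPINE2 missed it without the filter on low counts at -0.17 and with limma on TPM at -0.19 with either pseudocount, and ranged from -0.18 to -0.17 without single libraries. SERPINF1 passed with DESeq2 at 0.24 and ranged from 0.15 to 0.32 without single libraries. Members called higher numbered 1 with DESeq2 and 0 to 1 without single libraries. Members called lower numbered 1 without the filter, 0 with limma on TPM with either pseudocount, and 0 to 1 without single libraries.

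Over all genes, DESeq2 called 1638 higher and 1642 lower, limma on log2(TPM + 1) 233 and 526, and limma on log2(TPM + 0.1) 191 and 462. Without single libraries there were 204 to 769 higher and 333 to 854 lower. In the wider list, limma on log2(TPM + 0.1) called 4 higher, leaving out single libraries 4 to 8, and DESeq2 called 4 lower. Among other serpins, 1 was higher with DESeq2, with a mean of at least 1 CPM and with limma-voom, and 0 to 1 without single libraries, where 1 to 3 were lower. The causes of these changes were not tested. Fits that drop a library rest on 2 libraries in that group.

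The replicate numbers of the labels were not shown to pair the libraries: deviations from the group means correlated across genes at -0.0431, 0.0602 and 0.124 for numbers 1, 2 and 3, and not every library correlated best with its own number. With the replicate block, edgeR called 592 genes higher and 736 lower, and PLAT and SERPINE2 still passed (adjusted p = 0.0449 and 0.0476). SERPINB2 rests on 68 to 100 counts per library, with a 95% interval of -0.68 to 0.38.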
